A study of Oryza sativa Japonica Group with 10 samples.

Results

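The 200 genes described here had a lower signal in rice seedlings on low phosphate at 6, 24, 48 and 72 h than in seedlings with sufficient phosphate. They were chosen from 17905 genes measured by a probe set that the platform annotation ties to a single gene, using the brightest such probe set of each gene. A score was taken as the lower of the 2 control log2 signals minus the highest log2 signal of the 8 low-phosphate arrays. Of 11701 genes with both control signals at 200 or more, 1632 scored above 0, so that both control arrays exceeded all 8 others. After AMY3D, AOS3, OsWRKY62 and the genes named OsChia or OsHsf were left out, 9 of these were gone and the 200 highest scores of the remaining 1623 were kept. The rule thus used the difference between low phosphate and control, and every value of that difference below is a description with no test.

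The signals are those of 10 Affymetrix rice arrays and the RNA was that of 1-week-old seedlings of the cultivar Zhonghua 10. The groups were low phosphate for 6, 24, 48 and 72 h and a control on sufficient phosphate, with 2 arrays each that the labels call biological replicates. All groups are of that cultivar and the labels give the tissue only as seedlings, so roots and shoots were not separated. The labels give no harvest time for the control and no sufficient-phosphate group at each time, so seedling age and time of day cannot be told apart from low phosphate. All 4 differences from control share the same 2 control arrays.

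Plants short of phosphate switch on uptake and recycling genes through PHR transcription factors, which SPX proteins hold back when phosphate is plentiful. The genes described here are those whose signal was lower instead. A lower signal in a whole seedling can come from fewer cells of a type or from less RNA per cell, and these cannot be told apart here.

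Only 34 of the 200 genes have a published symbol in the RefSeq gene table, and the remaining 166 are known by their locus number alone. Scores ran from 0.61 to 2.14 on the log2 scale with a median of 0.90, so that the lower control signal was 1.53 to 4.41 times the highest low-phosphate signal, with a median of 1.87 times. At the edge of the selection, BBD2, LOC4328789 and LOC4329001 scored 0.62, 0.61 and 0.61 inside it. Just outside it, LOC4330160, GLO3 and LOC4333197 scored 0.61, 0.61 and 0.61. The genes were bright in control seedlings, with mean control signals of 208 to 42353 and a median of 1984, against a median of 1239 over all genes with both control signals at 200 or more. Their control arrays differed little, with a median standard deviation between the 2 arrays of 0.05 on the log2 scale and a highest value of 0.62 for JAMYB.

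Over the 200 genes the median log2 difference from control was -1.41, -1.59, -1.42 and -1.42 at the 4 times in order. At least 2-fold lower means were seen for 161, 175, 158 and 160 genes at these times, and at least 4-fold lower means for 37, 62, 30 and 44. The mean was at least 2-fold lower at all 4 times for 106 of the 200 genes (53.0%), and for 112 of those 11701 (0.957%). In limma's moderated test on all 10 arrays, adjusted over 34355 probe sets, 197, 199, 192 and 197 of the 200 fell at 6, 24, 48 and 72 h, where 17.2%, 19.2%, 12.5% and 17.6% of all probe sets tested fell, and 29.7%, 32.6%, 22.8% and 26.1% of genes with both control signals at 200 or more. These counts follow from the rule and nothing is read from them. A score above 0 was reached by 9.92% of all 17905 genes and by 13.9% of those with both control signals at 200 or more.

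**Figure D1:**
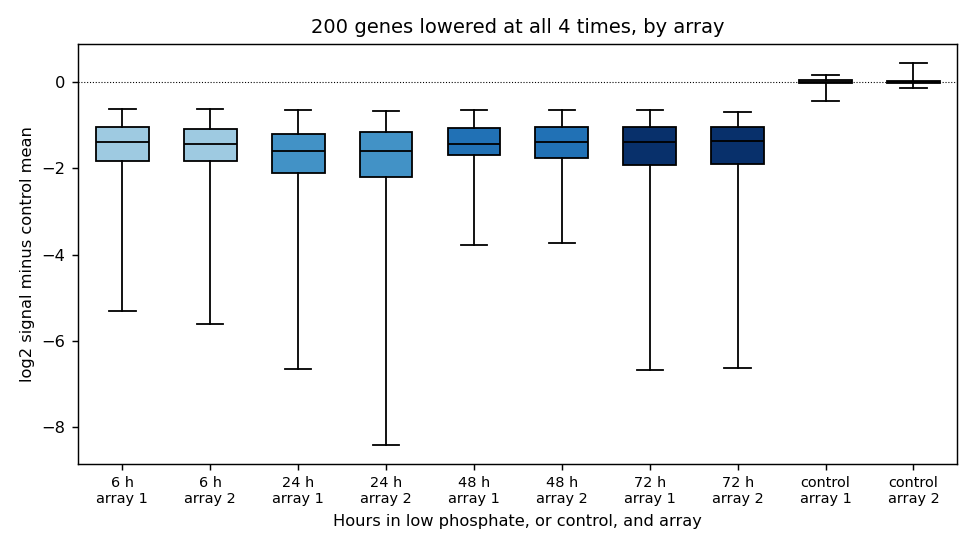
Log2 signal minus the gene's control mean for the 200 genes, by array, at 6, 24, 48 and 72 h in low phosphate and in control seedlings. Boxes span the quartiles with the median as a line and whiskers reach the lowest and highest gene; array medians lie between -1.36 and -1.59 at all 4 times, and the longest whiskers include genes whose signals were under 23.9, the level of the filter on dim probe sets.

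The 5 highest scores belonged to loci without a symbol, and LOC4338211 had the highest of all. LOC4338211 had signals of 88.9 and 74.6 at 6 h, 161 and 152 at 24 h, 202 and 189 at 48 h and 245 and 349 at 72 h, against 1563 and 1537 in control. Its lowest arrays were those of 6 h and its highest low-phosphate arrays those of 72 h. LOC4334442 had 161 and 136 at 6 h, 543 and 454 at 24 h, 393 and 406 at 48 h and 275 and 291 at 72 h, against 2242 and 2344 in control. LOC4324024 moved the other way, with 1515 and 1519 at 6 h, 1186 and 1127 at 24 h, 850 and 807 at 48 h and 264 and 219 at 72 h, against 5567 and 5327 in control. None of its groups overlapped, and each later time was lower. LOC4341816 and LOC4352852 had log2 differences from control of -3.12, -2.499, -2.97 and -2.18, and of -1.94, -2.92, -2.26 and -3.05, at the 4 times in order. Mean signals at least 4-fold below control at all 4 times were found for 4 genes, which are LOC4338211, LOC4341816, LOC4334442 and LOC4334292, the last of them named after its values were seen. Of the 11701 genes with both control signals at 200 or more, 5 (0.0427%) had such means.

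Among genes with a symbol the highest score belonged to ICL, isocitrate lyase, an enzyme of the glyoxylate cycle that lets seedlings make sugar from stored fat. ICL signals were 833 and 897 at 6 h, 1434 and 1450 at 24 h, 516 and 535 at 48 h and 2562 and 2568 at 72 h, against 7022 and 7161 in control. None of these groups overlapped. GLN1-3, a cytosolic glutamine synthetase that joins ammonium to glutamate, had 61.7 and 90.6, 108 and 92.5, 80.8 and 61.1, and 162 and 102 at the 4 times, against 355 and 435 in control. OsUGE-3, a UDP-glucose 4-epimerase that interconverts the sugar donors of cell-wall polymers, was among the flattest, with signals of 547 to 824 over the 8 low-phosphate arrays against 1578 and 1673 in control. OsITPK3, an inositol phosphate kinase of the pathway that leads to phytate, had 7909 and 7919 at 6 h, 2444 and 2226 at 24 h, 9299 and 9558 at 48 h and 8488 and 8565 at 72 h, against 17524 and 17681 in control. OsYSL13, of the yellow stripe-like family whose known members carry metal chelates, had 2684 and 2747, 4946 and 4466, 3529 and 3549, and 2030 and 2037, against 8627 and 8232. Its 24 h arrays stood above those of the other low-phosphate times, and its 72 h arrays below.

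Genes of the cell wall and surface were also present. LAC19 and LAC15 are laccases, copper oxidases of a family that polymerises lignin. LAC19 had signals of 281 and 260 at 6 h, 254 and 189 at 24 h, 758 and 723 at 48 h and 343 and 348 at 72 h, against 1904 and 1913 in control. LAC15 was lowest at 6 h, with 73.7 and 85.0, and highest among low-phosphate times at 48 h, with 240 and 213, against 540 and 494 in control. EXLA2, an expansin-like wall protein, had 693 and 631, 371 and 416, 475 and 594, and 655 and 664, against 1764 and 1666. OsCASPL4B4, a CASP-like membrane protein, was at 3017 and 2542 at 24 h and between 4182 and 6107 on the other low-phosphate arrays, against 11519 and 11435 in control. EXLA2 and OsCASPL4B4 thus had their lowest signals at 24 h. Of 9 laccases measured, 3 scored above 0, the third being LAC24, which is outside the 200. That is 33.3%, where 9.92% of all genes scored above 0. In limma 4, 3, 4 and 3 of the 7 tested laccases fell at the 4 times and 1, 1, 0 and 0 rose. Over all 16081 genes tested 22.4%, 25.2%, 17.2% and 19.8% fell and 28.6%, 29.4%, 28.5% and 31.1% rose. Counts for this and each later gene list include its genes among the 200, which the rule chose to be lower. A share scoring above 0 rests on the rule's own score, and the lists were revised after values were seen. That share was 13.9% among genes with both control signals at 200 or more, and lists differ in how many such genes they hold. The counts for lists, and the shares of all genes beside them, are therefore descriptions only. With arrays centred on medians, 1091 of all genes rose and 7506 fell at 72 h, in place of 4994 and 3192, and counts for lists at 72 h moved with this.

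**Figure D2:**
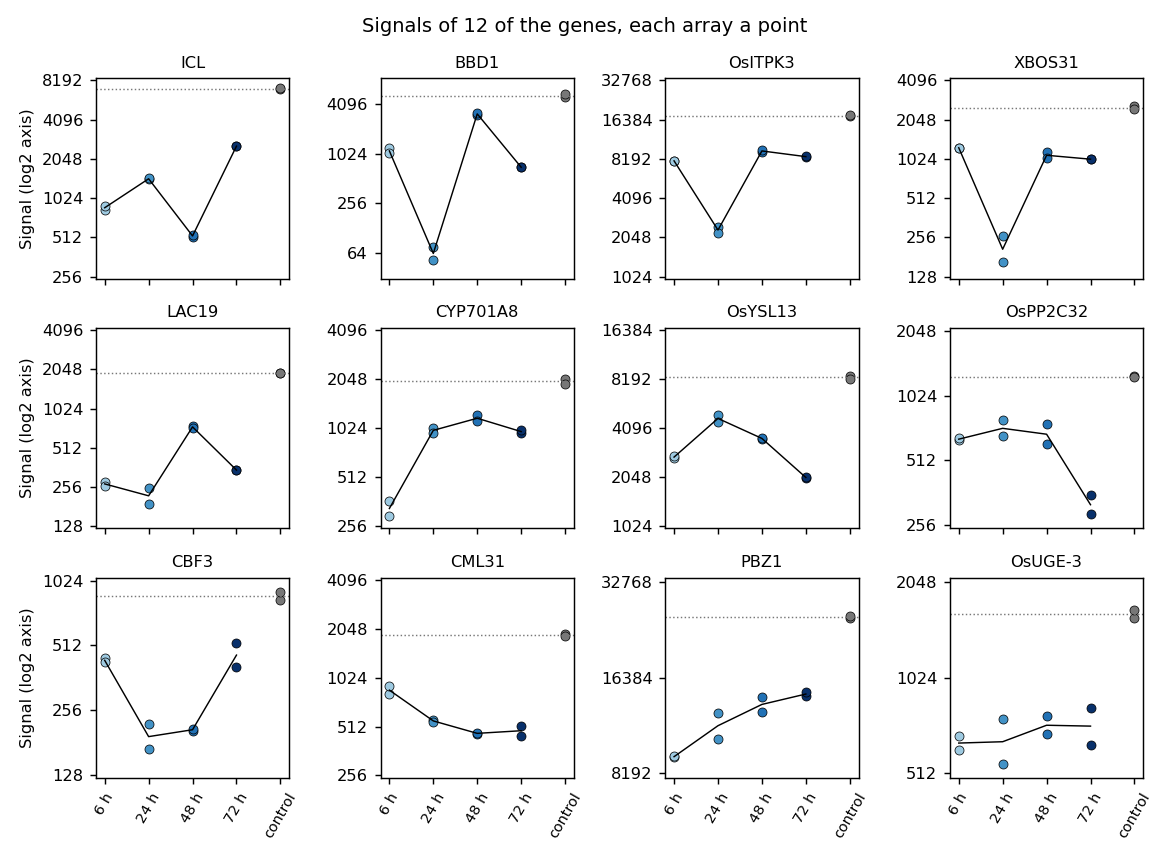
Signals of 12 of the 200 genes on a log2 axis, with the 4 low-phosphate times and then the control on the horizontal axis, each array a point, a line through the low-phosphate means and a dotted line at the control mean. BBD1, OsITPK3 and XBOS31 dip at 24 h, ICL and OsYSL13 have a higher mean at 24 h than at 6 or 48 h, and OsUGE-3 lies between 547 and 824 on all 8 low-phosphate arrays.

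Calcium sensors gave 4 of the 200 genes. Calmodulin-like proteins bind calcium and pass the signal on to other proteins. CML31 had signals of 813 and 907 at 6 h, 565 and 545 at 24 h, 460 and 469 at 48 h and 449 and 519 at 72 h, against 1911 and 1865 in control. CML4 had 5231 and 5378, 2928 and 2912, 4715 and 4511, and 3218 and 3346, against 10412 and 9995. The 24 h arrays of CML4 were the lowest, while those of CML31 lay between 6 and 48 h. CML1 had log2 differences from control of -0.99, -0.97, -1.48 and -1.75 in order of time. CML9, the dimmest of the 4, had -1.03, -1.28, -1.19 and -0.91, from control signals of 308 and 327. Of 26 calmodulin and calmodulin-like genes measured, 9 (34.6%) scored above 0, against 9.92% of all genes. The direction was mixed in the list: in limma 9, 11, 13 and 12 of 24 tested fell and 10, 5, 2 and 6 rose at the 4 times, where 3595, 4053, 2767 and 3192 of all genes fell and 4604, 4722, 4591 and 4994 rose. Median centring gave 16 falls and 2 rises at 72 h. The median log2 difference of the list was 0.22, -0.28, -0.52 and -0.31 at these times, against 0.09, 0.06, 0.14 and 0.15 over all genes tested.

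Hormone signalling gave several genes. EIL1 (LOC4332697) is an EIN3-like factor of the ethylene pathway. Its signals were 534 and 509 at 6 h, 561 and 429 at 24 h, 451 and 485 at 48 h and 384 and 242 at 72 h, against 1485 and 1388 in control. Another gene with the symbol EIL1, LOC107276358, is outside the 200 and was far brighter, with 22270 and 22251 in control. The log2 differences of LOC107276358 from control were -0.34, -0.31, -0.35 and -0.02 in order of time. LOGL9, of the family that releases active cytokinins, had log2 differences from control of -1.69, -1.59, -1.40 and -1.26. JAZ11 is a repressor that jasmonate removes, and its signals were 632 and 603, 506 and 485, 382 and 397, and 358 and 365, against 1043 and 1040. The arrays of its 4 times did not overlap, and later times were lower. JAMYB, a MYB factor known to respond to jasmonate, had 223 and 385, 363 and 252, 245 and 236, and 451 and 485, against 821 and 1503, so its control arrays differed more than those of any other of the 200 genes. The list of jasmonate synthesis and signalling was matched through symbols and synonyms, and it also holds the GATA factors GATA17, GATA18 and GATA20. Of its 40 genes measured, 7 (17.5%) scored above 0, against 9.92% of all genes. In limma 5 of 37 tested (13.5%) fell at all 4 times, against 5.94%. These counts include 1 gene that had been left out of the 200 by name. At the 4 times 14, 11, 16 and 16 fell and 8, 13, 7 and 5 rose, where 22.4%, 25.2%, 17.2% and 19.8% of all genes fell. With arrays centred on medians 12 fell and 9 rose at 24 h, so the direction there turned, and 26 fell and 2 rose at 72 h.

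Responses to abscisic acid and dryness were represented by ML and EM. ML, the salt-induced mannose-binding lectin salT, was the brightest of the 200 genes, with 16208 and 16525 at 6 h, 18761 and 16838 at 24 h, 22434 and 21448 at 48 h and 24495 and 25768 at 72 h, against 42328 and 42377 in control. EM, a late-embryogenesis-abundant protein of dry seeds, was dim, with 145 and 83.6, 49.6 and 48.0, 95.6 and 60.5, and 165 and 177, against 275 and 311. The lowest EM signals were at 24 h and the highest low-phosphate ones at 72 h. MFT1, of the phosphatidylethanolamine-binding family and linked to seed dormancy, had log2 differences of -1.21, -2.12, -1.51 and -1.19. OsPP2C32, of the protein phosphatase 2C family, had 638 and 648, 664 and 787, 610 and 754, and 352 and 287, against 1268 and 1248, with 72 h below all the others. Of 23 genes in the list of abscisic acid signalling, dehydrins and LEA proteins, which counts ML, 6 (26.1%) scored above 0. The share was 9.92% for all genes and 13.9% for genes with both control signals at 200 or more, as 21 of the 23 had. OsSAPK6, OsSAPK9, OsPYL11 and ABA8OX2 scored above 0 but are outside the 200. In limma 14, 11, 11 and 7 of 22 tested fell and 4, 8, 2 and 5 rose, where 22.4%, 25.2%, 17.2% and 19.8% of all genes fell and 28.6%, 29.4%, 28.5% and 31.1% rose. Median centring gave 14 falls and 1 rise at 72 h. The summed signal of 5 measured seed markers of endosperm and aleurone was 1385 to 2407 on low-phosphate arrays and 2644 and 2508 in control, and none of the 5 is among the 200. Most of that sum was GLUA-2, a glutelin storage protein, with 1305 to 2262 on low-phosphate arrays and 2486 and 2323 in control. GLUB-4 and AMY1.4 had 9.2 to 57.8 and 14.4 to 104.5 on low-phosphate arrays, against 53.4 and 65.3, and 94.5 and 112.6, in control, and both overlapped control. GLUA-1 and AMY1.1 were under 23.9 on all 10 arrays. The part of seed tissue in these values was not tested.

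Transcription factors and regulators of stress followed no single course. CBF3, the cold-linked factor DREB1A, had 446 and 427 at 6 h, 221 and 168 at 24 h, 205 and 210 at 48 h and 527 and 404 at 72 h, against 836 and 906 in control. NAC068 had log2 differences from control of -1.18, -1.40, -1.30 and -0.81. ISAP1, a stress-associated protein with A20 and AN1 zinc fingers, had -0.85, -1.86, -1.42 and -1.41. XBOS31, an ankyrin-repeat RING ubiquitin ligase, had 1247 and 1247, 165 and 262, 1153 and 1034, and 1021 and 1017, against 2590 and 2459. Its 24 h arrays were far below those of the other times, which were close together.

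Defence genes were spread over several classes. PBZ1, a PR10 protein induced by probenazole, had 9212 and 9244 at 6 h, 12719 and 10505 at 24 h, 14290 and 12743 at 48 h and 14365 and 14742 at 72 h, against 25222 and 25620 in control. CYP71P1, the tryptamine hydroxylase that makes serotonin, had log2 differences of -1.50, -1.54, -1.02 and -1.57. A second probe set of CYP71P1 was dim, with control signals of 1.4 and 3.4, and at 72 h its signals were 59.6 and 46.3. CRK6, a cysteine-rich receptor-like kinase, had -1.09, -1.48, -0.91 and -1.21.

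BBD1 and BBD2 code for bifunctional nucleases known from basal defence. BBD1 had 1189 and 1038 at 6 h, 52.4 and 74.7 at 24 h, 3044 and 3233 at 48 h and 707 and 699 at 72 h, against 5085 and 5425 in control. BBD2 had 6024 and 5953, 3221 and 2899, 8061 and 7907, and 7325 and 7839, against 12863 and 12365. Both had their lowest signals at 24 h and their highest low-phosphate signals at 48 h.

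Diterpenoid phytoalexins, the antimicrobial compounds that rice makes from labdane precursors, involve DTC1 and CYP701A8. DTC1, the cyclase KSL7 of the phytocassane branch, had 71.0 and 88.4, 90.0 and 81.9, 168 and 188, and 95.6 and 135, against 310 and 313. CYP701A8, a cytochrome P450 of the same pathways, had 295 and 363 at 6 h, 1028 and 958 at 24 h, 1227 and 1132 at 48 h and 952 and 998 at 72 h, against 2071 and 1928 in control. The 6 h arrays of CYP701A8 were clearly the lowest. The gene list here was of labdane-related diterpenoid synthesis, which is not limited to phytoalexins, and it holds CPS1 and ks1. Of its 20 genes measured, 7 (35.0%) scored above 0, against 9.92% of all genes. The other 5 are CPS2, CYP71Z7, KS10, CYP99A2 and OsMAS, outside the 200. In limma 10, 10, 7 and 8 of 18 tested (55.6%, 55.6%, 38.9% and 44.4%) fell and 1, 0, 0 and 2 rose, where 22.4%, 25.2%, 17.2% and 19.8% of all genes fell. The list's median log2 difference was -1.36, -0.82, -0.38 and -0.51 at the 4 times. With arrays centred on their medians 12, 10, 6 and 13 fell and 0, 0, 1 and 0 rose.

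Other lists held 0, 1 or 2 of the 200 genes, which make up 1.12% of all genes measured. Counts this low are not read against that share. Nitrogen assimilation had 1 of 16 measured genes among them, GLN1-3, and GDH2 also scored above 0, while 8, 9, 7 and 7 of 15 tested rose and 3, 2, 3 and 4 fell, which at 72 h turned to 3 rising and 6 falling with arrays centred on medians. The inositol phosphate kinases had 1 of 7, the stress-associated zinc finger proteins 1 of 13, the NAC factors 1 of 8, the protein phosphatases 2C 1 of 55 and the ethylene and AP2/ERF factors 2 of 23. None of the 34 heat shock proteins, 31 calcineurin-B-like proteins and their kinases, 50 CCCH zinc finger proteins and 22 phosphate-starvation and transport genes was among the 200, although 2 of the heat shock list had been left out by name. In the phosphate list OsPHR3 and OsPht1;1 scored above 0, by 0.10 and 0.02, and 0 of 19 tested genes fell at all 4 times in limma, where 5.94% of all genes did.

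**Figure D3:**
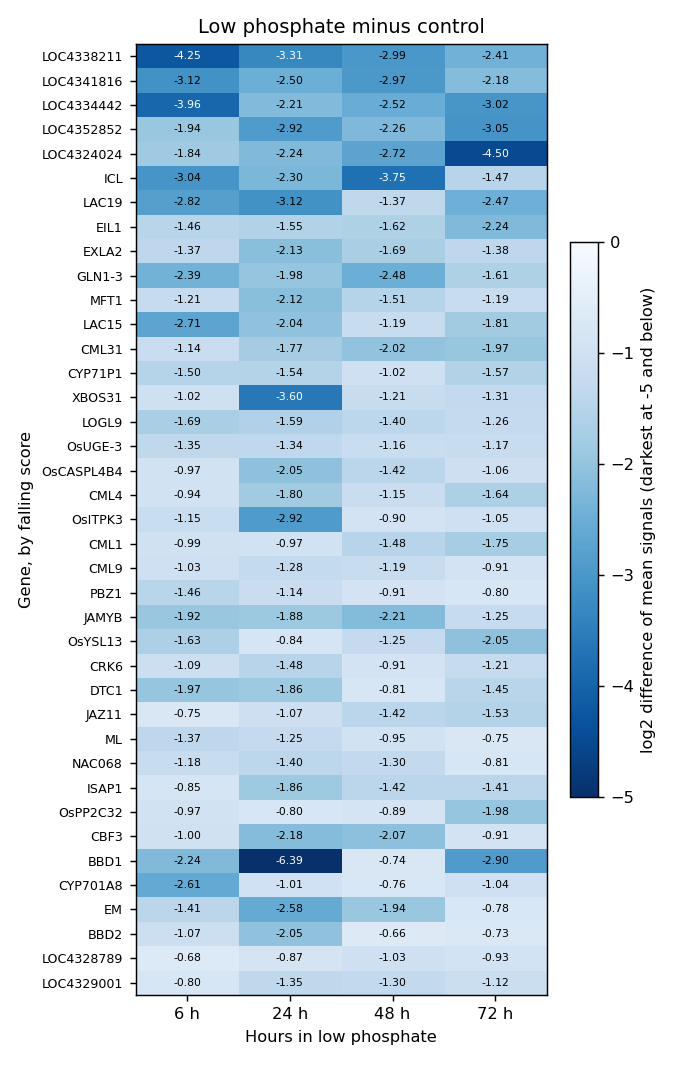
Log2 difference of mean signals, low phosphate minus control, for the 39 named genes in order of score, with hours in low phosphate across. All 156 values are below 0, from -0.66 for BBD2 at 48 h to -6.39 for BBD1 at 24 h, where the colour scale ends at -5.

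The remaining genes were described by their ranges. The 161 genes not named by the rule had mean control signals of 208 to 26753, and their log2 differences reached no higher than -0.65, -0.67, -0.67 and -0.69 at the 4 times in order. BG1 and GLL, which have symbols but fall outside the rule, had differences of -0.77, -1.28, -0.96 and -0.69, and of -0.97, -1.14, -0.77 and -0.74. In 5 genes both arrays of some time were under a signal of 23.9, so that the difference has only a bound. The deepest was LOC4324218 at 24 h, with 16.4 and 4.0 against 1503 and 1217 in control, at least 56.6-fold lower. LOC4337388 was under that level at 6, 24 and 72 h, at least 10.9-fold lower each time.

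The log2 changes between low-phosphate times do not use the control signals. Their SEs and adjusted p-values do, as does the F-test, because limma's estimate of spread was shared by all groups, control included. Taking the lower control signal can favour genes whose control arrays are close, so the rule can also affect these SEs and p-values. The rule used the highest of the 8 low-phosphate signals, which limits these genes from above but does not set the order of the times. It disfavours genes that are high at any low-phosphate time, so it can shape the shares of rises, falls and courses below. Those shares are descriptions, set beside genes that were not limited in this way. Among the 4 times 170 of the 200 genes (85.0%) varied in limma's F-test, against 56.5% of all probe sets tested and 87.6% of genes with both control signals at 200 or more. The share is near that of the genes with both control signals at 200 or more, which had a lower median signal than the 200, and is no result about the 200. The spread between the lowest and highest of the 4 mean log2 signals had a median of 0.89. It was under 0.5 for 39 genes and over 2 for 28.

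From 6 to 24 h, 46 of the 200 genes rose and 76 fell, 61.0% in all, against 39.3% of all probe sets and 65.0% of genes with both control signals at 200 or more. Rises made up 23.0% and falls 38.0%, where all probe sets had 19.5% and 19.8% and the brighter genes 32.0% and 33.0%. From 24 to 48 h, 72 rose and 40 fell, 56.0%, against 35.8% of all probe sets (20.5% rising, 15.3% falling) and 60.5% of the brighter genes (33.6% rising, 26.9% falling). From 48 to 72 h, 52 rose and 57 fell, 54.5%, against 31.2% of all probe sets (14.4% rising, 16.9% falling) and 49.0% of the brighter genes (25.2% rising, 23.8% falling). At 72 h compared with 6 h, 55 rose and 55 fell, 55.0%, against 35.1% of all probe sets (17.5% rising, 17.6% falling) and 57.4% of the brighter genes (30.0% rising, 27.4% falling). The median changes of the 200 genes were -0.13, 0.10, 0.00 and -0.01 on the log2 scale. The split into rises and falls depended on the scaling of arrays, most of all where 72 h was involved. Centring on medians, which lowers 72 h against control by 0.50 and the other times by 0.10 or less in size, gave 85 rises and 26 falls from 24 to 48 h, 12 rises and 127 falls from 48 to 72 h, and 23 rises and 109 falls at 72 h compared with 6 h.

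**Figure D4:**
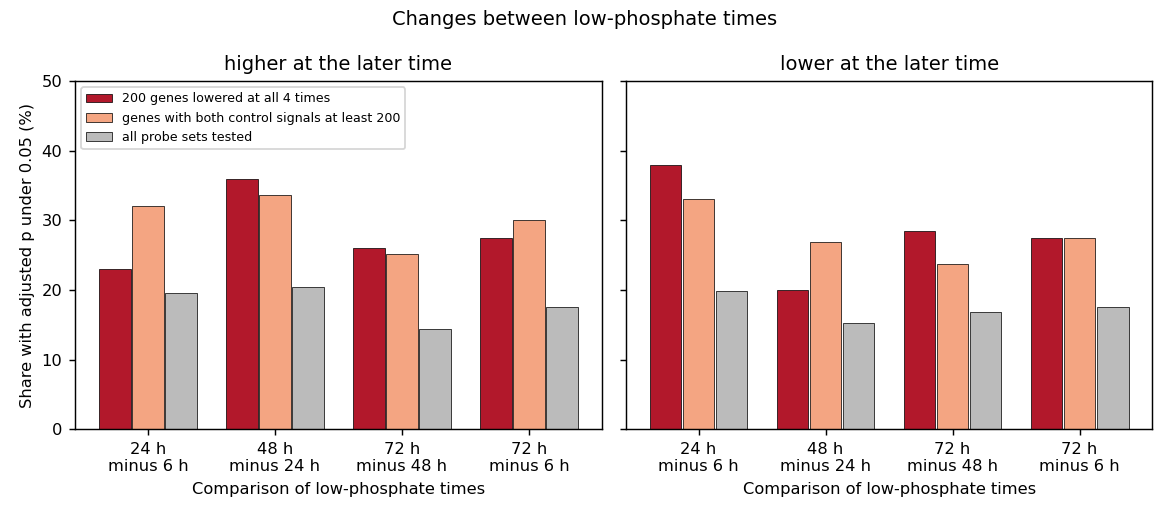
Share with an adjusted p under 0.05 in limma, in percent, of the 200 genes, of genes with both control signals at 200 or more and of all probe sets tested, for 4 comparisons of low-phosphate times. At 24 h compared with 6 h, 38.0% of the 200 genes were lower and 23.0% higher, and at 48 h compared with 24 h 36.0% were higher and 20.0% lower.

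The lowest mean was at 24 h for 72 genes, 36.0% against 33.1% of genes with both control signals at 200 or more. At 6, 48 and 72 h it was lowest for 44, 37 and 47. A fall from 6 to 24 h followed by a rise from 24 to 48 h passed both tests in 48 genes (24.0%, against 21.7%), and 10 of these have symbols. They are EXLA2, MFT1, XBOS31, OsCASPL4B4, CML4, OsITPK3, ISAP1, BG1, BBD1 and BBD2. The reverse course passed in 22 genes (11%, against 18.8%), among them ICL and OsYSL13. Means stood in falling order with 72 h below 6 h in 13 genes (6.5%, against 2.81%), among them EIL1 and JAZ11, and in rising order in 10 (5.0%, against 5.04%), among them PBZ1 and ML. Nothing passed in any of the 4 comparisons for 26 genes (13.0%, against 10.2%). Markers of green shoots and roots differed among themselves at 24 h. The 4 green-shoot markers summed to 38249 and 37879 at 24 h, 43439 to 72946 at the other low-phosphate times and 66405 and 67048 in control. The low sum was that of the chlorophyll-binding proteins CAB2R, with 4012 and 4038 at 24 h against 37179 and 37973 in control, and LHCP, with 8378 and 8273 against 12437 and 12224. OsrbcS, a small subunit of Rubisco, and PSB28 of photosystem II instead had their highest signals of all 10 arrays at 24 h, 20073 and 19754, and 5785 and 5815. The 5 root markers summed to 16878 and 16433 at 24 h, 24707 to 37673 at the other low-phosphate times and 28367 and 29232 in control. The low sum was that of 1 gene, the silicon channel Lsi1, with 9107 and 8480 at 24 h against 20794 and 21309 in control. The silicon transporter Lsi2 had 6827 and 7045 at 24 h, against 6886 and 7265 in control, and OsCASP1 was at its highest at 24 h, with 193 and 311. No marker is among the 200, and the part of tissue makeup in the courses was not tested.

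The largest changes among named genes were those of BBD1, which fell by 4.15 ± 0.14 (log2, SE, n = 2 arrays per group, limma adjusted p = 7.49e-10) from 6 to 24 h. It then rose by 5.65 ± 0.14 from 24 to 48 h (limma adjusted p = 5.45e-11) and fell by 2.16 ± 0.14 from 48 to 72 h (limma adjusted p = 4.10e-07). XBOS31 had the same dip, a change of -2.59 ± 0.16 into 24 h and of 2.39 ± 0.16 out of it (limma adjusted p = 1.24e-07 and 3.05e-07). OsITPK3 changed by -1.76 ± 0.05 and 2.02 ± 0.05 over the same steps (limma adjusted p = 2.21e-10 and 5.72e-11). All 3 returned by 48 h to a level below control.

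ICL ran the opposite way at each step, rising by 0.74 ± 0.07 from 6 to 24 h, changing by -1.46 ± 0.07 from 24 to 48 h and rising by 2.29 ± 0.07 from 48 to 72 h (limma adjusted p = 2.61e-06, 9.57e-09 and 2.19e-09). At 72 h it was 1.57 ± 0.07 above 6 h (limma adjusted p = 1.44e-08). OsYSL13 rose by 0.79 ± 0.06 from 6 to 24 h, then changed by -0.41 ± 0.06 and -0.80 ± 0.06 at the next steps (limma adjusted p = 5.00e-07, 0.000158 and 1.16e-06). CYP701A8 rose by 1.60 ± 0.11 from 6 to 24 h and stood 1.58 ± 0.11 above 6 h at 72 h (limma adjusted p = 1.84e-07 and 4.53e-07).

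CBF3 fell by 1.18 ± 0.17 from 6 to 24 h and rose by 1.16 ± 0.17 from 48 to 72 h (limma adjusted p = 0.000123 and 0.000251). LAC19 rose by 1.76 ± 0.14 from 24 to 48 h and fell by 1.10 ± 0.14 from 48 to 72 h (limma adjusted p = 1.03e-06 and 8.17e-05). OsPP2C32 fell by 1.09 ± 0.14 from 48 to 72 h and differed by -1.01 ± 0.14 between 72 and 6 h (limma adjusted p = 7.41e-05 and 0.000103). CML31 differed by -0.83 ± 0.10 between 72 and 6 h, and CML1 fell by 0.52 ± 0.11 from 24 to 48 h (limma adjusted p = 5.40e-05 and 0.00322). These calls held in all alternatives run.

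Other calls were lost under some alternatives, at times with a change of about the same size. PBZ1 was 0.66 ± 0.08 higher at 72 h than at 6 h (limma adjusted p = 3.40e-05), and with arrays centred on medians the difference was 0.19 with adjusted p = 0.135. LAC15 rose by 0.66 ± 0.21 from 6 to 24 h (limma adjusted p = 0.0243), and the change was 0.56 with adjusted p = 0.119 without the first 6 h array and 0.61 with adjusted p = 0.0840 without the second 24 h array. Fitting only the groups compared gave adjusted p = 0.142. Its rise of 0.90 ± 0.21 between 6 and 72 h (limma adjusted p = 0.00527) was 0.43 with adjusted p = 0.135 under median centring and had adjusted p = 0.0556 with only the groups compared. EIL1 differed by -0.78 ± 0.19 between 72 and 6 h (limma adjusted p = 0.00742), by -0.44 with adjusted p = 0.0665 without the second 72 h array, and with adjusted p = 0.0509 without an intensity trend.

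JAZ11 fell by 0.35 ± 0.10 from 24 to 48 h (limma adjusted p = 0.0187), and the change was -0.32 to -0.38 with adjusted p of 0.0584 to 0.101 without the first 24 h array or either 48 h array. With only the groups compared the adjusted p was 0.0655. Its difference between 72 and 6 h, -0.77 ± 0.10, passed in all alternatives (limma adjusted p = 9.15e-05). EM rose by 1.17 ± 0.34 from 48 to 72 h (limma adjusted p = 0.020), and by 0.84 with adjusted p = 0.163 without the second 48 h array. Without the first or second 72 h array the change was 1.22 and 1.12, with adjusted p = 0.0608 and 0.0853. JAMYB rose by 0.96 ± 0.29 at that step (limma adjusted p = 0.0269), and by 0.91 to 1.01 with adjusted p of 0.0796 to 0.117 when any of the 4 arrays compared was left out. Without an intensity trend its adjusted p was 0.115. Median centring also ended the calls of EM, JAMYB and JAZ11 at these steps, with adjusted p = 0.139, 0.218 and 0.166.

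Genes among the 200 that lie near each other could be found through gene order in the RefSeq table. Within 5 genes to either side, 25 of the 200 (12.5%) had another of the 200, and 637 of the other 11501 genes with both control signals at 200 or more (5.54%) had one. They formed 11 pairs and 1 group of 3, and 6 of the 25 were measured by probe sets whose suffix marks possible cross-hybridisation with related sequences. The group of 3 was LOC4352487, LOC4352488 and PBZ1. LOC4352487 had 4916 and 4682 at 6 h, 9509 and 8553 at 24 h, 9465 and 8891 at 48 h and 7870 and 8394 at 72 h, against 17452 and 18066 in control. LOC4352488 had 7300 and 7599, 9111 and 10711, 12690 and 11777, and 9585 and 10923, against 20494 and 19859. All 3 had their lowest signals at 6 h.

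Neighbours did not always share a course. LOC4350823 had 210 and 173 at 6 h, 556 and 542 at 24 h, 1134 and 1166 at 48 h and 248 and 254 at 72 h, against 3337 and 3441 in control. Its neighbour LOC4350821 had 2535 and 2269, 1332 and 1074, 3145 and 2983, and 2128 and 2327, against 10106 and 9575, with its lowest arrays at 24 h rather than at 6 h. BBD2 and the adjoining LOC4345363 both had their lowest signals at 24 h. LOC4348847 had its highest low-phosphate signals at 72 h, 5250 and 5307, where LOC4348848 had its lowest, 896 and 739. CML9 and LOC4339173 flank CAM (LOC4339172), which scored 0.36 and is outside the 200.

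**Figure D5:**
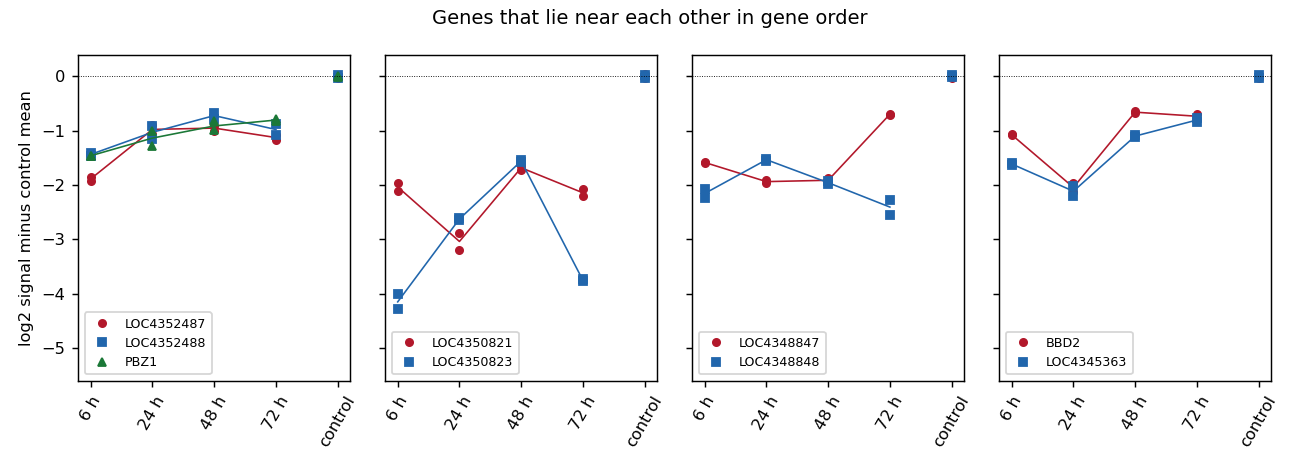
Log2 signal minus the control mean for 4 sets of neighbouring genes, with hours in low phosphate and then control across, each array a point and a line through the low-phosphate means. LOC4352487, LOC4352488 and PBZ1 are lowest at 6 h, BBD2 and LOC4345363 are lowest at 24 h, and LOC4348847 and LOC4348848 part at 72 h.

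Further probe sets of the same genes were not used by the rule. There were 50 for 40 of the 200 genes, and 17 of them had both control signals at 200 or more. Of those 17, 14 (82.4%) scored above 0 themselves and 16 were below the control mean at all 4 times, where 14.9% of 1427 such further probe sets of other genes scored above 0. Many of the 17 have a suffix that marks possible cross-hybridisation, among them those of ML, EXLA2 and BBD2. They may therefore not be independent measures of the same gene. A second bright probe set scored 1.10 for ML, 1.08 for EXLA2 and 0.67 for CML4. The second bright probe set of BBD2 had log2 differences from control of -0.83, -1.998, -0.27 and -0.09, and its score was below 0. For OsITPK3 a dimmer probe set had -0.85, -1.97 and -0.97 at 6, 24 and 48 h and 0.33 at 72 h. Counted over all 50, 29 were below the control mean at all 4 times and 5 were above it at all 4.

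Facts of the whole series touch these values. Signals had been scaled to a trimmed mean of 500 per array, with medians of 47.6 to 54.2 on 8 arrays and of 69.3 and 68.5 at 72 h. The log2 ratio of 3′ to 5′ signal was also higher at 72 h, at 5.10 ± 0.53 for rice Gapdh and 2.93 ± 0.10 for rice actin, against 1.75 ± 0.20 and 0.65 ± 0.21 in control (SD, n = 2). At 6 h it was 2.46 ± 0.16 for Gapdh and 1.92 ± 0.04 for actin, also above control, while at 24 and 48 h it was 1.497 and 1.58 for Gapdh and 0.94 and 0.82 for actin. The part of RNA or labelling quality in the 6 and 72 h values was not tested. When the rule was run again without both 72 h arrays, 148 of the 200 genes were chosen once more. Leaving out arrays cannot lower the score of a probe set, so the genes not chosen again were passed by others at the limit of 200. The count does not show which genes rest on the 72 h arrays.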

How the data were processed

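Each array has 1 deposited intensity per probe set, a linear signal that the authors made with GCOS and MAS5, per the submitters' processing notes. The deposited arrays share a trimmed mean of 500 (2% cut at each end), so they had been scaled to a common target. Per the labels' protocols, 8 µg of RNA from independent treated and nontreated plants was labelled per array, and p-values rest on the spread between these samples. The number of arrays, 2 per group, limits the precision.

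Log2 signals were used without an offset. Group means over the 10 arrays were fitted in limma 3.58.1 (R 4.3.3) with eBayes and an intensity trend (5 residual and 6.50 prior degrees of freedom), over 34355 probe sets whose mean log2 signal was above the 40th percentile (a signal of 23.9). Tests were two-sided, adjusted with Benjamini-Hochberg over those probe sets, and called at 0.05. The fit was tested on simulated data. Probe sets with both arrays of a group under 23.9 give bounds only.

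Genes were named from the platform annotation and a RefSeq gene table. The coordinates in that table were used only to order genes along chromosomes. No sequences were used, and promoter windows planned for the genes were not analysed here. Named genes are the 5 highest scores, the 25 highest with a symbol, those in the 15 gene lists, up to 4 rises and 4 falls with a symbol per comparison of times, and the 3 lowest scores. The genes and lists were chosen with earlier results of these data known, and the lists, matched through symbols, were revised after values were seen.

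The alternatives were quantile normalisation, centring on medians, an offset of 16, other filters and control limits, the mean of a gene's probe sets, no intensity trend, only the groups compared, a replicate block and leaving out each array.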

Additional observations from a re-analysis of the deposited data

Results flagged for a closer look

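The difference between low phosphate and control was not the same at all times for many of the 200 genes, by limma's test of one low-phosphate time against another. It differed for 122 genes between 24 and 6 h, 112 between 48 and 24 h, 109 between 72 and 48 h, 110 between 72 and 6 h, and 170 in the F-test over the 4 times. As shares these were near those of genes with both control signals at 200 or more.

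Among named genes, the log2 changes at 24 h compared with 6 h were 1.60 for CYP701A8, 0.79 for OsYSL13, 0.74 for ICL, 0.66 for LAC15, -4.15 for BBD1, -2.59 for XBOS31, -1.76 for OsITPK3 and -1.18 for CBF3. At 48 h compared with 24 h they were 5.65 for BBD1, 2.39 for XBOS31, 2.02 for OsITPK3, 1.76 for LAC19, -1.46 for ICL, -0.52 for CML1, -0.41 for OsYSL13 and -0.35 for JAZ11. At 72 h compared with 48 h they were 2.29 for ICL, 1.17 for EM, 1.16 for CBF3, 0.96 for JAMYB, -2.16 for BBD1, -1.10 for LAC19, -1.09 for OsPP2C32 and -0.80 for OsYSL13. At 72 h compared with 6 h they were 1.58 for CYP701A8, 1.57 for ICL, 0.90 for LAC15, 0.66 for PBZ1, -1.01 for OsPP2C32, -0.83 for CML31, -0.78 for EIL1 and -0.77 for JAZ11.

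Control transcripts outside the comparisons had a higher log2 ratio of 3′ to 5′ signal at 72 h than in control seedlings. At 72 h it was 5.10 against 1.75 for rice Gapdh, 2.93 against 0.65 for rice actin, 6.03 against 2.097 for dap and 2.74 against 1.64 for lys, of which dap and lys are bacterial transcripts measured on the same arrays. At 6 h it was 2.46 for Gapdh, 1.92 for actin, 3.50 for dap and 1.85 for lys, above control for the first 3 of these and within the SD of 0.32 for lys.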

How the results depend on the processing

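Over 19 alternatives, 10 of which left out 1 array each, the 5 counts of genes that changed between low-phosphate times stayed within 1.5 times their value. Leaving out 1 array gave 97 to 121 genes at 24 h compared with 6 h, 89 to 115 at 48 h compared with 24 h, 82 to 115 at 72 h compared with 48 h, 96 to 118 at 72 h compared with 6 h and 157 to 169 in the F-test. By direction, centring on medians gave 26 lower at 48 h compared with 24 h in place of 40. At 72 h compared with 48 h it gave 12 higher and 127 lower in place of 52 and 57, and at 72 h compared with 6 h 23 higher and 109 lower in place of 55 and 55. That centring lowers the 72 h arrays most, as their medians were highest. With a replicate block the counts were 121, 112, 103, 110 and 167. No pairing of samples by number was seen: over 10 pairs of same-numbered arrays the correlation of their deviations was -0.01 to 0.02. A weak pairing or shared batch could be missed in this way and is not excluded.

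Of 608 values of the 32 named changes under alternatives, 585 stayed on their side of 0.05, 23 lost the call and 0 reversed. Of 2964 differences from control, 2773 were counted as the same, 190 as moved but not reversed and 1 as reversed. The reversed value was that of CYP71P1 at 72 h, 1.51 above control with the mean of all probe sets, because of its dim probe set. When the rule was run again, 182 of the 200 genes were kept with a control limit of 100, 177 with 400, 181 after quantile normalisation, 158 after median centring, 196 with an offset of 16, 172 with the mean of probe sets, and 175 to 194 with 1 array left out. Leaving out an array cannot lower the score of a probe set, so the genes not kept then were passed by others at the limit of 200. With 2 arrays per group, changes of dim genes have wide errors.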
